A study of Mus musculus with 2 samples.

Results

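Ligand-gated GABA and glycine receptors, the metabotropic GABA-B receptor, their inhibitory scaffolds and the chloride cotransporters that set their driving force were described in ribosome-bound RNA of cells marked by Drd2, the gene of the dopamine D2 receptor. The set was chosen by name, as all probe sets whose platform annotation gives a single gene with its symbol among 31 listed genes. This rule uses no signal, but the list was drawn up with earlier results of these data known. All 31 genes were measured, by 32 probe sets, out of 22180 named genes on the array. Adult D2Cre::RiboTag mice supplied the material. In such mice a Drd2 Cre driver switches on a haemagglutinin-tagged ribosomal protein, so the ribosomes of cells in which the driver has been active, and the RNA on them, can be pulled from a tissue lysate. The RNA came from the medial prefrontal cortices of 5 pooled mice and was hybridised to 2 arrays, labelled as technical replicates 1 and 2, which are assumed here to come from a common pool. Both arrays form a single group, without unprecipitated RNA, a mock precipitation, Cre-negative mice or another condition analysed here. The values therefore tell which of these transcripts gave signal, not which were enriched, and no test between groups exists. Their SD measures technical repeatability and not variation between animals.

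GABA-A receptors are chloride channels built of 5 subunits, usually alpha and beta subunits with a gamma or delta subunit, and the subunit mix sets their location and drug response. Glycine receptors are related chloride channels, whose beta subunit binds the scaffold protein gephyrin. GABA-B receptors are G protein-coupled and open potassium channels or close calcium channels. Whether chloride channels hyperpolarise a neuron depends on its chloride gradient, which is set largely by cotransporters of the Slc12a family.

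Signals are given on a log2 scale, which was read off the size of the values, and those with an error are means ± SD over the 2 arrays (n = 2 technical arrays). Genes of olfactory and vomeronasal receptors, 1394 in number, served as background, and their 95th percentile was 5.61 and 5.66 on the arrays. A gene was taken as above background where both its values exceeded these limits. Drd2 stood at 10.78 and 10.70. All 4 measured general neuronal markers and all 4 excitatory markers were above background, as were all 5 measured markers of GABAergic neurons. So were all 5 astrocyte, 4 oligodendrocyte, 3 oligodendrocyte precursor, 5 microglia and 5 vascular markers measured, with list medians of 7.40, 8.66, 7.04, 6.71 and 6.67. Above a stricter threshold taken from testis, liver and muscle genes, described below, stood 4, 4, 2, 2 and 2 of them. Of all named genes, 60.3% were above background and 44.4% above the stricter threshold. The labels call the captured cells neurons. The part of RNA from such other cells in any signal below was not tested, and in a pool of cells a smaller number of expressing cells cannot be told apart from less RNA per cell.

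Of the 31 inhibitory receptor and scaffold genes, 23 were above background and 8 were not, against 60.3% of all named genes. The 23 include all 6 scaffold and trafficking genes and both chloride cotransporters, which are not receptor subunits. The members fell on clearly different sides. The lowest gene above background, Glra1, averaged 6.32 and the highest one not above it, Gabrq, averaged 5.03, so none lay in between. No member was above on 1 array only, a state that was rare on the array as a whole, at 788 of the 22180 named genes. The median signal was 9.47 for the members, against 6.355 for all named genes. Raising the threshold to the 99th percentile of those receptors (6.64 on both arrays) left 22 members, against 45.0% of all named genes. The 95th percentile of 34 testis, liver and skeletal muscle genes, at 6.75 and 6.57, also left 22 members, against 44.4%. The main threshold is permissive, since 2 of 11 testis, 2 of 13 liver and 4 of 10 muscle genes passed it, and the testis gene Odf1, chosen after its value was seen, averaged 7.50. Over the median of all probe sets, at 5.80 and 5.81, stood 23 members, against 57.5%. In all, 22 members passed each of these 4 thresholds, 8 passed none, and only Glra1 lay between. Probe sets bind with unequal strength, so the signals do not order the transcripts by abundance.

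**Figure D1:**
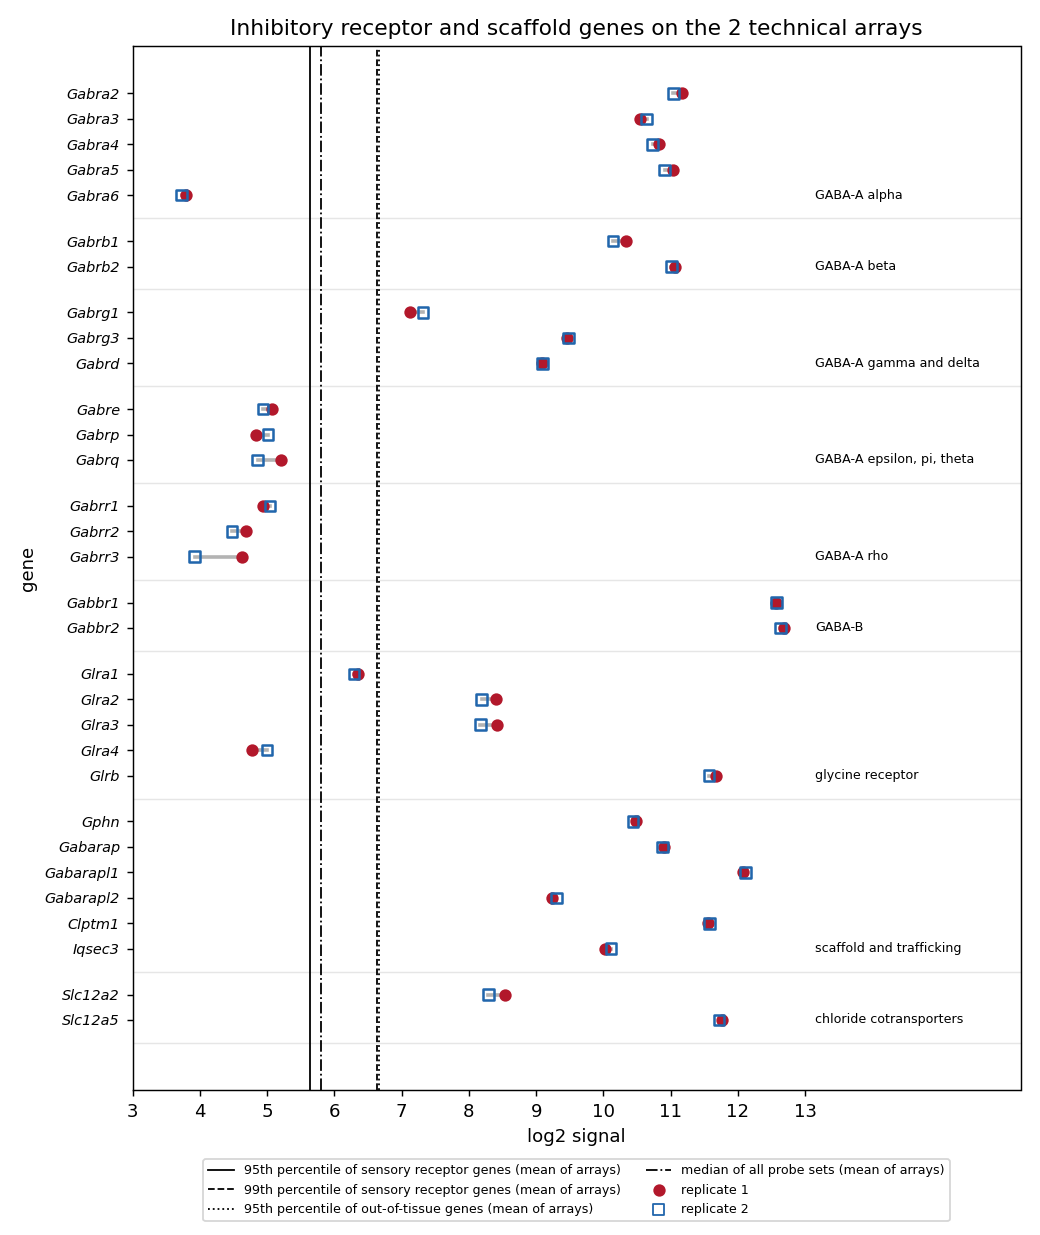
Log2 signal (horizontal axis) of each of the 31 genes on replicate 1 (filled circles) and replicate 2 (open squares), grouped by role, with 4 thresholds as vertical lines at their mean over the arrays. A group of 8 genes lies left of every line, Glra1 lies between the lines, and the other 22 genes lie to the right of all of them.

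Of the 5 alpha subunit genes measured, 4 were above background. Gabra2 gave 11.17 and 11.04 on the arrays, and its subunit is known from synapses on the cell body and axon initial segment of cortical pyramidal cells. Gabra3 gave 10.55 and 10.64. Its subunit also forms synaptic, benzodiazepine-sensitive receptors. Gabra4, whose subunit pairs with delta in receptors outside synapses, gave 10.83 and 10.73. Gabra5, whose subunit carries tonic currents in the hippocampus and cortex, gave 11.04 and 10.91. These 4 genes exceeded the background threshold by 4.96 to 5.47 log2 units on average, far more than the array differences of 0.09 to 0.13. Gabra6, a subunit gene of cerebellar granule cells, was the exception at 3.80 and 3.73, with a mean difference of -1.87 from the threshold. Signal was thus found for alpha subunits that respond to classical benzodiazepines (Gabra2, Gabra3 and Gabra5) and for Gabra4, which does not.

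Both beta subunit genes measured were above background. The beta subunit forms the GABA binding site together with alpha. Gabrb1 gave 10.34 and 10.14, or 10.24 ± 0.14. Gabrb2, the beta subunit common in adult cortex, gave 11.06 and 11.01, or 11.04 ± 0.04. Replicate 2 read lower for both genes.

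All 3 measured gamma and delta genes were above every threshold tried, Gabrg1 by the smallest margin. Gamma subunits bring receptors to synapses and form the benzodiazepine site with alpha. Gabrg3 gave 9.46 and 9.48. Gabrg1 gave 7.12 and 7.32, which is 1.58 units over background and 0.56 over the threshold from testis, liver and muscle genes. Its array difference of 0.20 was smaller than either margin. Gabrd, the delta subunit of neurosteroid-sensitive receptors outside synapses, gave 9.08 and 9.09. With Gabra4 above background as well, both subunits of the alpha4-delta pairing gave signal in this RNA. Whether they come from the same cells was not measured.

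The 6 genes of the less common subunits all lay below background. Epsilon (Gabre) gave 5.07 and 4.94, and theta (Gabrq) gave 5.20 and 4.86. Both are known from hypothalamus and brainstem. Pi (Gabrp), known from uterus and other tissues outside the brain, gave 4.84 and 5.01. The rho subunits, which form the bicuculline-insensitive receptors of the retina, were low as well. Gabrr1 gave 4.94 and 5.04, Gabrr2 gave 4.68 and 4.48, and Gabrr3 gave 4.62 and 3.92. Their mean differences from the threshold lay between -1.37 and -0.61 log2 units. Such values do not show that a transcript is absent, since no scanner background or detection call was used and weak signal is not separable from cross-hybridisation.

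Many GABA-A subunit genes lie in clusters, and in the RefSeq annotation of GRCm38.p6 neighbouring members did not always share a call. The 4 measured neighbours on chromosome 5, in the order Gabrg1, Gabra2, Gabra4 and Gabrb1, were all above background. Gabra4, on the minus strand, and Gabrb1, on the plus strand, overlap there. The pair Gabrg3 and Gabra5 on chromosome 7 was above as well, and the rho pair Gabrr2 and Gabrr1 on chromosome 4 was below. In contrast, Gabra6 on chromosome 11 was below background beside Gabrb2, which was above. On chromosome X, Gabra3 stood above background at 10.60 ± 0.06, and it lies between Gabre at 5.00 ± 0.09 and Gabrq at 5.03 ± 0.24. Neighbours here are members less than 1 Mb apart.

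**Figure D2:**
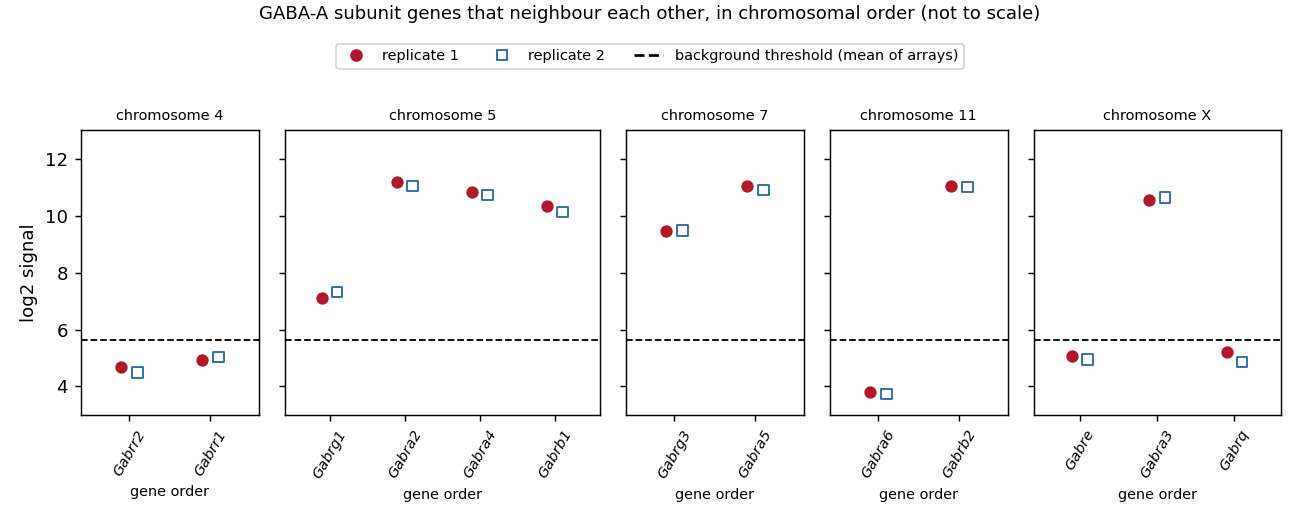
Log2 signal (vertical axis) of neighbouring GABA-A subunit genes on replicate 1 (filled circles) and replicate 2 (open squares), in chromosomal order and not to scale, with the background threshold dashed. On chromosomes 11 and X genes above and below the threshold are neighbours, whereas on chromosomes 4, 5 and 7 all the neighbours plotted share a side.

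The sequences before the starts of the chromosome X neighbours, which lie on both sides of the threshold, are shown with that of Gabra6. Each is the 250 bases before the outermost RefSeq start in GRCm38.p6, 5′ to 3′ on the gene's strand, with every CG dinucleotide in capitals. The windows are chrX:72656920-72657169 on the minus strand, chrX:72824928-72825177 on the plus strand, chrX:72274722-72274971 on the minus strand and chr11:42321073-42321322 on the minus strand.
Gabra3: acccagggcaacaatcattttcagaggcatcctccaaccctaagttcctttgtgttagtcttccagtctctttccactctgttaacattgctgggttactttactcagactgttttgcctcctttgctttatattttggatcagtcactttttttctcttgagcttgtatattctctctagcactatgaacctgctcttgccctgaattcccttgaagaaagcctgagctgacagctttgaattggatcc
Gabrq: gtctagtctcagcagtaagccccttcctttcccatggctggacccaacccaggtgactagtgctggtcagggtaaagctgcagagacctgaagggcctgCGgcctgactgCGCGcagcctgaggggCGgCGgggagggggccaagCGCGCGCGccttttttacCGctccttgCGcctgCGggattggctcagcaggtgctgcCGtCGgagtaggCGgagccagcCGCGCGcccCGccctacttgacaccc
Gabre: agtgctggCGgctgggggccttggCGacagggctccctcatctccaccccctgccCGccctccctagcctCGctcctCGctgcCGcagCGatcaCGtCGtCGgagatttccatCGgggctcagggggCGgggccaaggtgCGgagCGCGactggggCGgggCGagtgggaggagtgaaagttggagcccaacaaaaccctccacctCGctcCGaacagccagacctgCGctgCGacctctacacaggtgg
Gabra6: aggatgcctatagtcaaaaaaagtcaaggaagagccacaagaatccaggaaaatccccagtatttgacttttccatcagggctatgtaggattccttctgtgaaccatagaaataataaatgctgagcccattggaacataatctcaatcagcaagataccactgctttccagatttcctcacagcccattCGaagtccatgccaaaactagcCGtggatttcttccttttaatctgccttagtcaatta
The Gabra3 window, of the gene above background, holds 0 CG sites, while those of its neighbours Gabrq and Gabre, both below, hold 19 and 21. Gabra6 holds 2.

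CG content was counted in the same window for the 28 members that the promoter table holds. The motif CG reads the same on both strands, so each site was counted once, and overlap with other motifs was not considered. At least 1 CG stood in 91.7% of the 27025 windows of that length, 1 for each gene in the table. A window was named CpG-rich where its GC content exceeded 50% and its CG count exceeded 0.6 of that given by its C and G content. Of the 20 members above background with a window, 10 were CpG-rich, with a median of 12 CG sites. Of the 8 members below background, 2 were CpG-rich, Gabre and Gabrq, and the median was 3. Among all named genes with a window, 60.2% of those above background and 12.2% of those not above it were CpG-rich. The members thus split in the same direction as the array as a whole, with the order turned round inside the chromosome X cluster. High counts included Gabbr2 with 37, Gphn with 34 and Clptm1 with 22 CG sites. Gabrg1 had 1 and Gabra3 had 0, although both were above background. These counts are a description of sequence, and nothing about methylation or binding was measured. Gabrd, Glra1 and Slc12a2 were not matched.

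**Figure D3:**
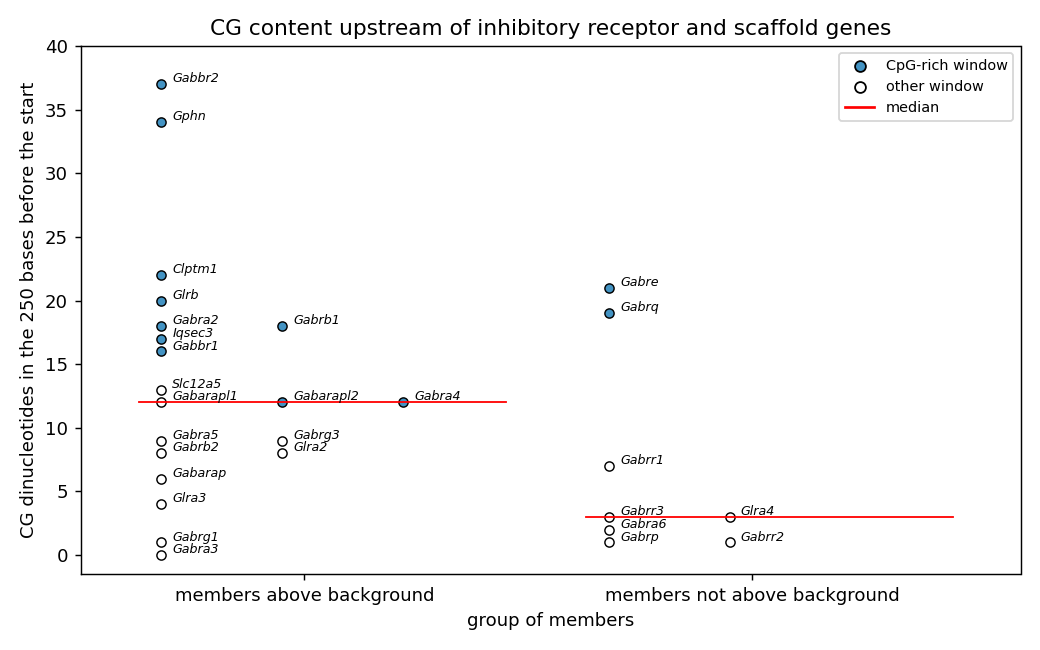
Number of CG dinucleotides in the 250 bases before the start (vertical axis) for members above background (left, 20 genes) and not above it (right, 8 genes), with CpG-rich windows filled and medians of 12 and 3 as red lines. Gabre and Gabrq are the filled points on the right, and Gabra3 lies at 0 on the left, with horizontal offsets for legibility only.

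GABA-B receptors need both of their subunits, and both genes gave signal that repeated closely. Gabbr1, which encodes the subunit that binds GABA, gave 12.57 on each array. Gabbr2, which encodes the subunit that couples to the G protein, gave 12.68 and 12.63. They exceeded the background threshold by 6.93 and 7.02 units. Of 8 listed auxiliary and effector genes of this receptor, 7 were above background, against 60.3% of all named genes, with a median of 8.42 against 6.355. Kctd12, an auxiliary subunit that speeds desensitisation of the response, gave 7.94 ± 0.01, and Kctd8, another of this family, gave 5.97 ± 0.07. Kctd8 lay under the 99th percentile of the olfactory and vomeronasal genes and under the threshold from other tissues. Kctd12b, also of this family, was below background at 4.78 ± 0.13. Potassium channel genes on which the receptor acts, namely Kcnj3, Kcnj6 and Kcnj9, were all above background, a choice of names made after their values were seen.

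Glycine receptor genes divided by subunit. Glrb, the beta subunit that anchors the receptor to gephyrin, gave 11.68 and 11.57, on average 5.99 units over background. Glra2, the alpha subunit of the immature nervous system that persists in the adult forebrain, gave 8.40 and 8.19. Glra3, known from the dorsal horn of the spinal cord and from retina, gave 8.42 and 8.17. Both exceeded background by 2.66 units and lay on the same side of all 4 thresholds. Glra1, the main alpha subunit of adult spinal cord and brainstem, gave 6.35 and 6.29. Its mean was 0.68 units over background, and its difference from the 99th percentile of the background receptors was -0.32. Glra4 was below background at 4.78 and 5.00. The call of Glra1 thus depended on the threshold, while those of the other 4 subunits did not.

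All 6 scaffold and trafficking genes were above background under each threshold, and each repeated within 0.08 log2 units. Gphn encodes gephyrin, the scaffold under inhibitory synapses, and gave 10.48 and 10.44. Iqsec3, an exchange factor for Arf GTPases that binds gephyrin, gave 10.03 and 10.11. Clptm1 gave 11.56 and 11.58, and its product holds GABA-A receptors in the endoplasmic reticulum. The ubiquitin-like ATG8 relatives serve vesicle traffic and autophagy. Gabarap, which binds GABA-A receptor gamma subunits, averaged 10.90 and 10.88 on the arrays. It was the only member with 2 probe sets, which averaged 12.24 and 9.54, both far over background. Gabarapl1 gave 12.07 and 12.11, and Gabarapl2 gave 9.24 and 9.30. The 8 related genes listed beside them all exceeded background and 7 passed the threshold from other tissues, against 60.3% and 44.4% of all named genes. The median of the 8 was 8.93, against 6.355. They included the ATG8 proteins Map1lc3a at 10.04 ± 0.08 and Map1lc3b at 11.77 ± 0.04 and the conjugating enzyme Atg3 at 9.85 ± 0.04.

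Other genes of the inhibitory postsynapse gave signal throughout. All 10 measured organisers were above background, and all 10 also passed the threshold from other tissues, against 60.3% and 44.4% of all named genes. Their median was 9.73, against 6.355. The adhesion protein genes Nlgn2, of inhibitory synapses, and Nlgn3 gave 11.02 ± 0.01 and 10.30 ± 0.01, and Lhfpl4, a transmembrane partner of GABA-A receptors, gave 8.94 ± 0.01. All 9 receptor trafficking partners were above both thresholds as well, at a median of 9.71, with the adaptor genes Hap1 at 9.21 ± 0.10 and Trak2 at 10.23 ± 0.01 and the phospholipase-related Plcl1 at 7.90 ± 0.06.

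Both chloride cotransporter genes were above background. Slc12a5 encodes KCC2, the neuronal transporter that extrudes chloride, and gave 11.76 and 11.72. Slc12a2 encodes NKCC1, which imports chloride in immature neurons and is also found in glia and other cells, and gave 8.54 and 8.29. The values exceeded background by 6.10 and 2.78 units. Astrocyte and oligodendrocyte markers were above background in this RNA too, and their part in the Slc12a2 signal was not tested. Of 11 other measured genes of chloride and volume regulation, 7 were above background, a share near the 60.3% of all named genes, with a median of 7.50. The regulatory kinases Wnk1, Wnk2, Wnk3, Stk39 and Oxsr1 and the channel Clcn2 were above it, named after their values were seen, and Wnk4 passed only narrowly at 5.72 ± 0.15. Another 4 cotransporters were not above it on both arrays: Slc12a1, known from kidney, at 5.09 ± 0.27, Slc12a3, also from kidney, at 5.45 ± 0.33, Slc12a4 at 5.66 ± 0.07 and Slc12a7 at 4.97 ± 0.48. Slc12a3 and Slc12a4 exceeded the threshold on 1 array each.

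**Figure D4:**
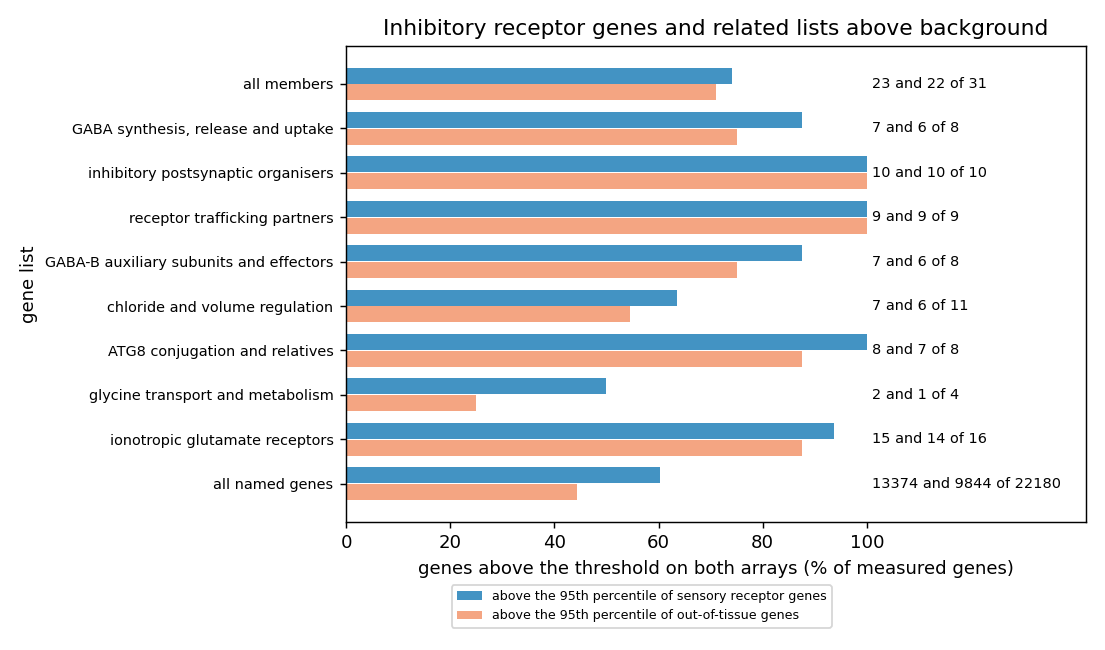
Share of measured genes above the 95th percentile of sensory receptor genes (blue) and of the testis, liver and muscle genes (out-of-tissue genes, orange) on both arrays, for the members, 8 related lists and all named genes, with counts at the right. The members reach 23 and 22 of 31, and the shares of all named genes are 60.3% and 44.4%.

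Ionotropic glutamate receptors, a family of excitatory channels, were set beside the inhibitory set. Background was exceeded by 15 of their 16 measured genes, against 23 of 31 in the inhibitory set and 60.3% of all named genes. The medians were 9.47, 9.47 and 6.355. The lists differ in make-up, since the glutamate list holds receptor genes only. The inhibitory set also holds 6 scaffold and trafficking genes and 2 chloride cotransporters, all above background. The difference in counts was not tested. Gria1, Gria2 and Gria3 of the AMPA type gave 11.46 ± 0.01, 12.22 ± 0.06 and 11.70 ± 0.06. Grin2c, an NMDA receptor subunit known from cerebellum, was the gene not above background on both arrays, at 5.55 ± 0.18.

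The SD of the difference between arrays was 0.178 over the 31 members and 0.114 over the 23 above background, against 0.218 over all named genes and 0.149 over those above background. Differences were at most 0.1 log2 units in 17 of the 31 members, and 46.0% of all named genes and 55.6% of those above background were within that limit. Differences over 0.2 were found in 6 members, namely Gabrr3, Gabrq, Glra4, Glra2, Glra3 and Slc12a2. The share of all named genes over that limit was not counted. Gabrr3, Gabrq and Glra4 were not above background, where the SD of the difference over named genes was 0.291. The largest difference belonged to Gabrr3, whose replicate 2 fell by 0.70 below replicate 1, and both its values lay under background. It was 2.32 times the SD of the difference among 2881 genes within 0.5 log2 units of its signal, and 97.2% of those genes differed less. No other member exceeded 2 such SDs. Gabrb1 came to 1.98, Slc12a2 to 1.94 and Glra3 to 1.89 of them. Of the 31 members 19 read higher on replicate 1, 11 on replicate 2 and 1 was equal, and this was not counted for all named genes.

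**Figure D5:**
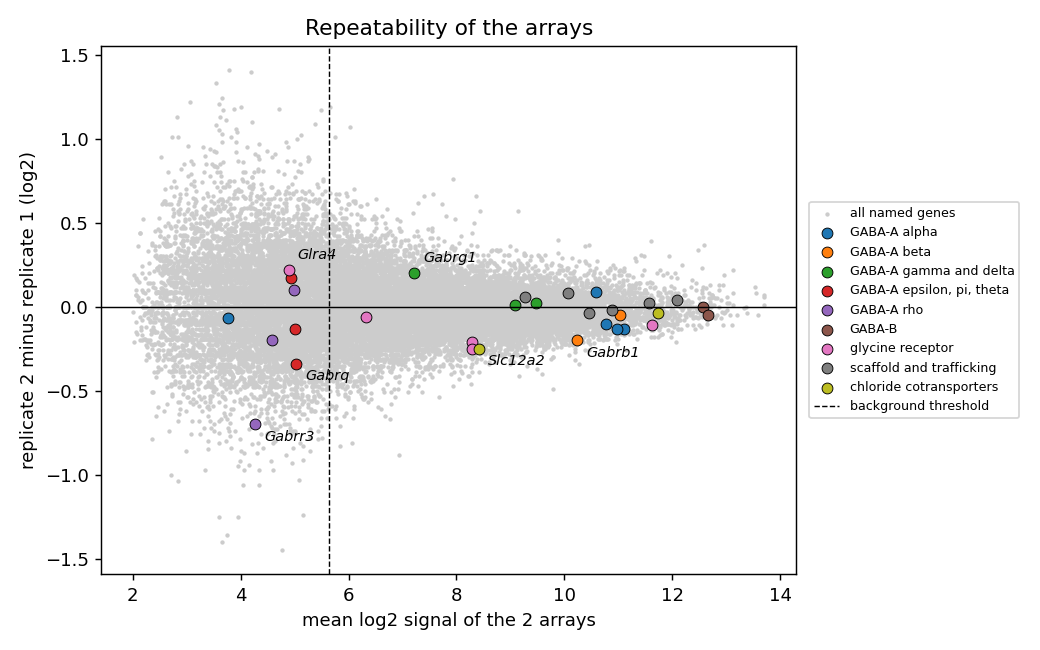
Difference between the arrays (replicate 2 minus replicate 1, log2) against mean log2 signal for all named genes (grey) and the members (coloured by role), with the background threshold dashed. Members above background lie within 0.25 of 0, and Gabrr3 at -0.70 is the lowest coloured point.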

How the data were processed

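RNA on immunoprecipitated ribosomes was labelled with biotin for Affymetrix whole-transcript arrays, per the labels' protocols. The deposited table gives 1 value per probe set and array, which the range shows to be log2 signals. How the authors corrected background, summarised probes and normalized is not given in the sources used here. Of 34472 probe sets, 23521 named 1 gene in the platform annotation, 1814 named several and were not used, and 9137 are unnamed here. Probe sets of a gene were averaged, and 0 symbols changed on matching to RefSeq. The number of arrays limits precision. The background threshold, described with the results, was set within each array. No p-value is given because both arrays share 1 group. Members, gene lists and thresholds were chosen with earlier results of these data known. All members were to be named, and of each list of related genes the first 3 measured genes and any gene whose call differed from that of most of its list. Alternatives covered the threshold, the choice among probe sets, quantile normalization and each array alone. Calls were tested on simulated data. Promoter windows come from RefSeq (GRCm38.p6). Python 3.11.15, pandas 2.3.3 and NumPy 2.4.6 were used.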

Additional observations from a re-analysis of the deposited data

How the results depend on the processing

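The number of members above background was 22 or 23 under each of the 9 alternatives, and the counts of the role groups other than glycine receptors moved only where Gabarap, with 2 probe sets, was left out. Glra1 alone changed sides. The smaller of its differences from the threshold on the arrays was -0.35 at the 99th percentile of the background receptors and -0.40 at the threshold from testis, liver and muscle genes. The first is higher than the main threshold by construction, and the second was higher in these data. The median of the members moved to 9.37 with genes of 1 probe set only, which leaves out Gabarap, and was 9.48 without replicate 1 and 9.46 without replicate 2. The SD of the difference between arrays lay between 0.178 and 0.182. No paired analysis was possible because there is 1 group. The threshold from other tissues rests on 34 genes. Technical arrays of a pool limit every value to repeatability.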

Other observations

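Genes that make, load and clear GABA were found beside its receptors. Of 8 measured genes for synthesis, release and uptake, 7 were above background and 6 above the threshold from other tissues, against 60.3% and 44.4% of all named genes. Their median was 8.87, against 6.355. The GABA-synthesising enzyme genes Gad1 and Gad2 gave 8.78 and 8.91 and 11.50 and 11.49 on the arrays, and the vesicular transporter gene Slc32a1 gave 9.04 and 8.90 (mean of 2 probe sets). Slc6a12, a betaine and GABA transporter known from kidney and liver, was below background at 5.37 ± 0.08. Slc6a13, which also transports GABA and is known from meninges, was named after its value was seen. It passed background at 6.35 ± 0.03 but not the threshold from other tissues. Among genes of glycine transport and metabolism, 2 of 4 were above background and 1 above the threshold from other tissues, against 60.3% and 44.4% of all named genes. Slc6a5, the glycine transporter of glycinergic neurons, was not above background, at 5.31 and 5.33. Gldc, of the glycine cleavage system, was above background at 6.70 and 6.43 but not above the threshold from other tissues. Shmt1, a serine hydroxymethyltransferase, exceeded background on 1 array only at 5.68 and 5.48. Shmt2, named after its values were seen, passed both thresholds at 8.11 and 8.22. Glycine receptor genes Glra2, Glra3 and Glrb gave signal in RNA in which Slc6a5 did not pass background. Slc6a9, the other glycine transporter of the list, was not measured, and the source of glycine was not tested.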
